A study of Rattus norvegicus with 12 samples.

Results

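The bacteria described here are the amplicon sequence variants (ASVs, exact 16S rRNA gene sequences inferred from the reads) of rat faeces that belong to the phylum Bacteroidota but to neither Muribaculaceae nor Prevotellaceae, the families that hold most Bacteroidota reads in these libraries. They were chosen by the lineage written beside each variant: 269 of the 7238 ASVs in the table met the rule, which is 25.4% of the 1059 Bacteroidota ASVs, and they held 106897 of 4635320 reads. They fall into 21 features at family level and 29 at genus level, where 23 have a genus name. Variants that the classifier left without a genus are summed under their deepest named rank and written as "unnamed" with that rank, and some of those named to order or class could belong to an excluded family. The study set the faecal bacteria of rats with experimental subarachnoid haemorrhage (SAH, bleeding around the brain) that had or had not been given tetrandrine (Tet), a plant alkaloid and calcium channel blocker, side by side with those of sham-operated rats. There were 4 groups of 3 libraries: SAH+Tet+ABX (haemorrhage, tetrandrine and ABX, a usual short form for antibiotics), SAH+Tet (haemorrhage and tetrandrine), SAH (haemorrhage alone) and Sham (sham operation). The first 3 groups share the haemorrhage and the first 2 also share tetrandrine, and libraries are given in the order of their replicate numbers. The sources used here do not give strain, age, sex, doses, the antibiotics or the interval from treatment to sampling. A further treatment label on every sample, which names a cell differentiation protocol, does not match faeces and was not used. Whether the libraries came from separate animals is not stated, so p-values measure only the spread between these libraries.

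Gut Bacteroidota are anaerobes that carry large sets of enzymes for cutting plant and mucus glycans, which they ferment to acetate, succinate and propionate. Bacteroides, Parabacteroides, Barnesiella and the Rikenellaceae are its best known saccharolytic or protein-fermenting genera outside the excluded families, whereas Odoribacter and Butyricimonas, of the family Marinifilaceae, also make butyrate, an acid that feeds colon epithelium. Several other families, such as the Bacteroidales RF16 group and p-2534-18B5, are known mainly from 16S sequences.

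Library totals formed 2 classes, 5 libraries with 211450 to 248285 reads (all 3 of SAH+Tet+ABX, SAH+Tet 3 and SAH 1) and 7 with 448795 to 531426 reads. Depth class and the antibiotic group therefore overlap, and the labels, which give all libraries the same batch, name no reason for the classes. A count of 0 reads allows a share of up to 0.00142% in the smallest library and up to 0.000565% in the largest (3 reads, counting error only, since reads from PCR are not independent molecules). Families of aerobic Gram-positive bacteria seen with skin or bedding material also set libraries apart. They held 0.0290% to 0.143% of reads in SAH+Tet+ABX, 13.0%, 19.8% and 0.0431% in SAH+Tet, 0.0991%, 12.4% and 11.3% in SAH, and 0.0278% to 0.0560% in Sham. No reads were assigned to chloroplasts or mitochondria. A read share cannot tell fewer cells of a taxon from more of the others, and no bacterial load was measured.

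The Bacteroidota outside Muribaculaceae and Prevotellaceae were least abundant in SAH+Tet+ABX. Their summed share was 0.106%, 0.529% and 1.15% of reads in SAH+Tet+ABX, 1.55%, 1.98% and 1.58% in SAH+Tet, 2.00%, 4.61% and 3.65% in SAH, and 1.52%, 3.86% and 1.74% in Sham. Each SAH+Tet+ABX library lay below every library of the other groups, and each SAH+Tet library lay below every SAH library, while SAH and Sham overlapped. The means were 0.594% ± 0.523 in SAH+Tet+ABX, 1.70% ± 0.242 in SAH+Tet, 3.42% ± 1.32 in SAH and 2.37% ± 1.29 in Sham (SD, n = 3 each, as throughout). No test was made of this sum, because the members were chosen with results of these data known. Of the excluded families, Muribaculaceae had their highest mean in SAH+Tet+ABX, with 25.1% ± 13.3 of reads there, 12.5% ± 4.34 in SAH+Tet, 13.8% ± 1.34 in SAH and 9.77% ± 2.40 in Sham. As a share of all Bacteroidota reads, the bacteria outside the excluded families made up 1.76% ± 1.08 in SAH+Tet+ABX, 8.27% ± 1.97 in SAH+Tet, 14.7% ± 3.47 in SAH and 12.8% ± 4.36 in Sham.

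**Figure D1:**
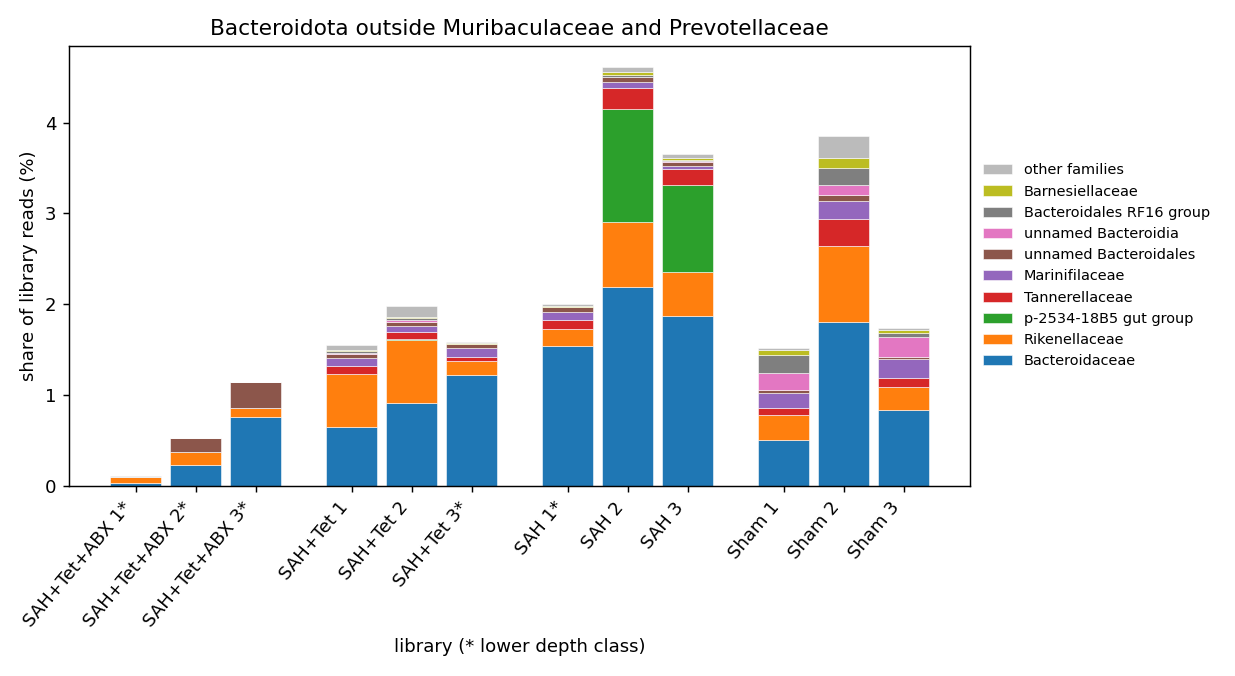
Stacked bars of the share of library reads (%) held by the Bacteroidota outside Muribaculaceae and Prevotellaceae in each of the 12 libraries, a colour per family-level feature, with an asterisk on the 5 libraries of the lower depth class. The SAH+Tet+ABX bars reach 0.106%, 0.529% and 1.15%, Bacteroidaceae are the largest block in every library except SAH+Tet+ABX 1, and the p-2534-18B5 gut group adds 1.25% and 0.967% in SAH 2 and SAH 3.

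Fewer distinct variants were read in SAH+Tet+ABX as well. At a common depth of 211450 reads, 8, 12.0 and 14.8 of these ASVs were expected in the SAH+Tet+ABX libraries, 98.6, 110.8 and 29.0 in SAH+Tet, 38.8, 129.7 and 107.2 in SAH, and 92.8, 114.6 and 105.1 in Sham. The SAH+Tet+ABX libraries were lowest, and SAH+Tet 3 and SAH 1, the other libraries of the lower depth class, were below every library of the higher class although depth had been made equal. The means were 11.6 ± 3.44 in SAH+Tet+ABX, 79.5 ± 44.1 in SAH+Tet, 91.9 ± 47.4 in SAH and 104.2 ± 10.9 in Sham. Over its 3 libraries SAH+Tet+ABX held 21 of the 269 ASVs, against 143 in SAH+Tet, 165 in SAH and 168 in Sham. Of these variants 7 were read in all 4 groups and 79 in each of the other 3 groups but not in SAH+Tet+ABX. Such losses were not confined to these bacteria. Of all 2394 ASVs tested (at least 10 reads in at least 3 libraries), 1540 had reads in SAH+Tet but none with antibiotics. Among the 111 tested ASVs of these bacteria it was 87. The 9 ASVs read in SAH+Tet+ABX and in no other group held 3.57%, 0.565% and 2.53% of that group's reads of these bacteria, so nearly all its reads came from variants also seen elsewhere. Single-library variants were frequent: 117 of the 269 ASVs were read in 1 library.

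**Figure D2:**
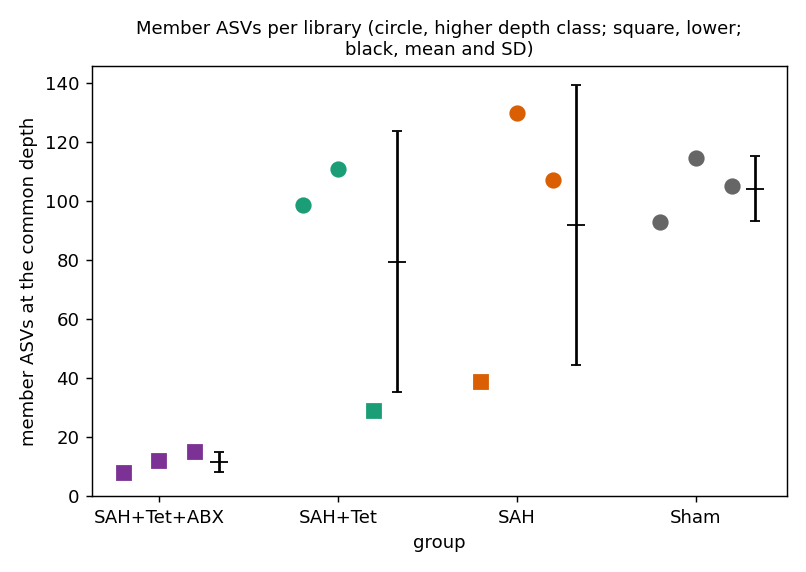
Number of ASVs of the Bacteroidota outside Muribaculaceae and Prevotellaceae expected at a common depth of 211450 reads (vertical axis) in each library, by group, with circles for the higher and squares for the lower depth class and black bars for the mean and SD of 3 libraries. The SAH+Tet+ABX libraries lie at 8 to 14.8, SAH+Tet 3 and SAH 1 at 29.0 and 38.8, and the 7 libraries of the higher class at 92.8 to 129.7.

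At the family level, 11 of the 21 features had enough reads to test (at least 10 reads in at least 3 libraries), and 5 differed among the 4 groups in an exact permutation test of the F statistic, adjusted over all 93 families of the table, of which 25.8% passed. Marinifilaceae gave an adjusted p of 0.0136, Barnesiellaceae 0.0141, Tannerellaceae 0.0260, unnamed Bacteroidia 0.0302 and Flavobacteriaceae 0.0459, and each had its lowest mean in SAH+Tet+ABX. Bacteroidaceae (adjusted permutation p = 0.0746), Rikenellaceae (0.179), the Bacteroidales RF16 group (0.0638), Paludibacteraceae (0.179), the Rs-E47 termite group (0.179) and unnamed Bacteroidales (0.9996) did not pass. With labels permuted within depth classes, a fit in which 25.8% of the 93 families passed again, Marinifilaceae (adjusted permutation p = 0.0221) and Barnesiellaceae (0.0403) still differed. Among SAH+Tet, SAH and Sham alone 0 of the 93 families passed, 0%, and the smallest adjusted p among these 11 was 0.237. That fit allows 280 arrangements and a smallest permutation p of 0.00357, so no family could pass the adjustment by itself. Its 0 therefore says little about whether families differed among these groups.

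SAH+Tet+ABX against SAH+Tet asks what antibiotics changed in treated animals. In SAH+Tet+ABX, 8 of the 15 genus-level features tested here fell and 0 rose (edgeR, adjusted p under 0.05), against 28.1% of all 196 features that fell and 9.18% that rose (37.2% together). An unadjusted p under 0.05 was found for 10 of the 15 and for 50.5% of the 196. Groups did not overlap for 5 of the 15 on the lower side, against 32.1% of all features, and for 0 on the higher side, against 9.69% (41.8% together). Those that fell were Butyricimonas, Odoribacter, Barnesiella, Parabacteroides, the Rikenellaceae RC9 gut group, the Bacteroidales RF16 group, unnamed Paludibacteraceae and unnamed Flavobacteriaceae. Bacteroides, Alistipes, Rikenella and unnamed Bacteroidales kept reads in at least 2 of the 3 SAH+Tet+ABX libraries and did not pass the test. Of the 15, 9 had 0 reads in all SAH+Tet+ABX libraries and reads in SAH+Tet, against 65 of all 196. The median log2 fold change, with such features at their bound, was -3.52 over the 15 and -1.28 over the 196. Butyricimonas, Barnesiella, Parabacteroides and unnamed Flavobacteriaceae passed in every alternative fit that tested them. The other 4 calls were lost with depth class as a term, a fit in which 4 of the 15 and 25% of all features passed. They were also lost with replicate number as a term and when any 1 library of the 2 groups other than SAH+Tet 3 was left out. These 4 features had 0 reads in every lower-class library, so the fit with depth class cannot estimate their contrast. Within the lower depth class, which holds 1 SAH+Tet library, none of the 8 had enough reads to be tested.

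SAH+Tet against SAH asks what tetrandrine changed in animals with haemorrhage. Bacteroides and Parabacteroides had lower shares in every SAH+Tet library than in any SAH library, and Rikenella had higher ones. No genus-level feature passed the adjusted threshold, neither among the 15 tested here nor among all 188 (edgeR, 0%), and 2 of the 15 had an unadjusted p under 0.05, against 19.7% of the 188. Groups did not overlap for 2 of the 15 on the lower side, against 10.6% of all features, and for 1 on the higher side, against 12.8%. The median log2 fold change was -0.22 over the 15 and 0.09 over the 188, and scaled by library totals alone it was 0.23 and 0.33, so it gives no direction. DESeq2 on the same counts called Rikenella (adjusted p = 0.0337) and 16% of all features.

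SAH against Sham asks what the haemorrhage changed. Odoribacter, unnamed Bacteroidia, the Bacteroidales RF16 group, unnamed Paludibacteraceae and the Rs-E47 termite group had lower shares in every SAH library than in any Sham library. These are 5 of the 15 features, against 22.9% of all 188 without overlap on that side, and 0 of the 15 lay wholly higher, against 12.2% (35.1% together). No feature of the 15 or of the 188 passed the adjusted threshold in edgeR (0%), and 3 of the 15 had an unadjusted p under 0.05, against 29.3%. The median log2 fold change was -0.27 over the 15 and 0.22 over the 188, and scaled by library totals alone it was -0.72 and -0.05. DESeq2, the fit with depth class as a term and the fit of the 7 higher-class libraries each called Odoribacter and unnamed Bacteroidia lower in SAH, beside 25.5%, 15.4% and 13.1% of all features. The SAH libraries of the higher class, SAH 2 and SAH 3, held 12.4% and 11.3% aerobic Gram-positive families, against at most 0.0560% in Sham. The part of that difference in these calls was not tested. Both comparisons without antibiotics share the SAH libraries, so their directions are not independent of each other.

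**Figure D3:**
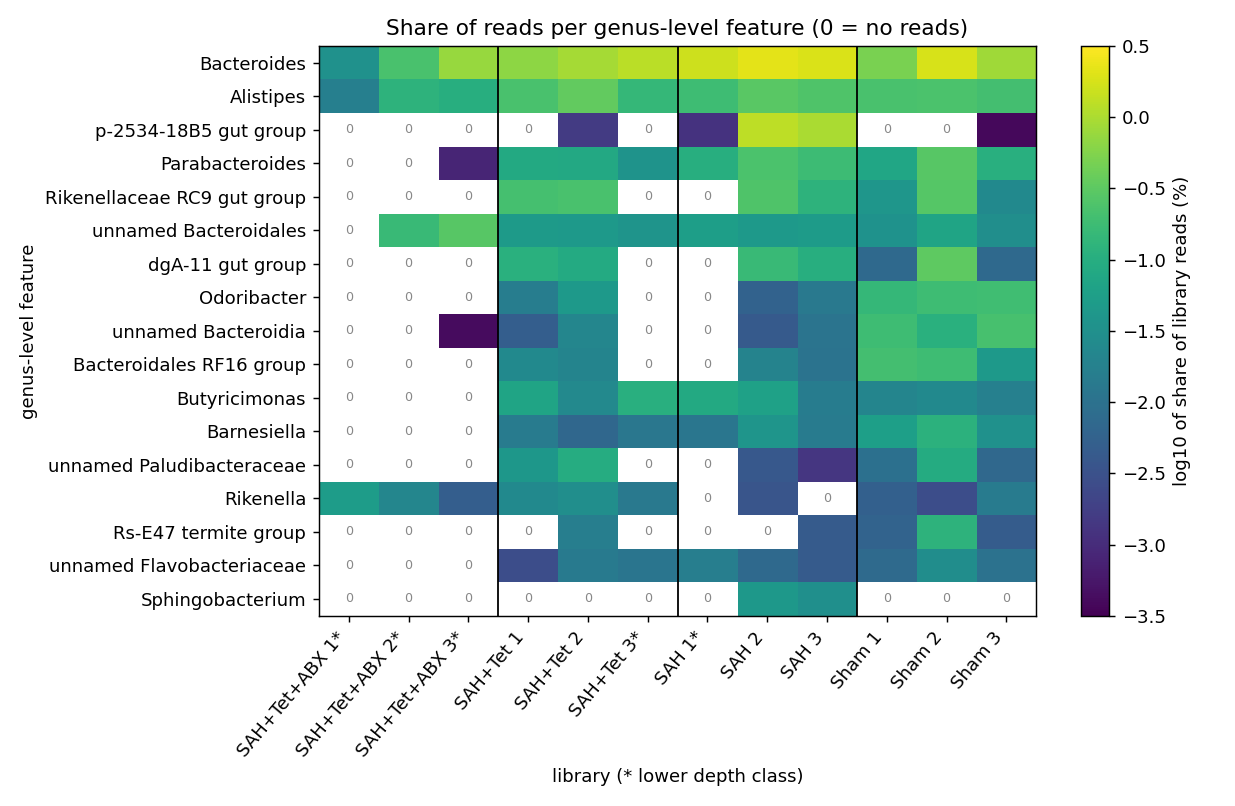
Heat map of the log10 share of library reads (%) for the 17 genus-level features that averaged at least 0.01% in a group, with libraries across, an asterisk on the lower depth class and a 0 where no read was found. Of the 17 rows, Bacteroides, Alistipes and Rikenella have reads in all 3 SAH+Tet+ABX libraries, and Odoribacter, the RC9 and RF16 groups, dgA-11, unnamed Paludibacteraceae, Sphingobacterium and the Rs-E47 termite group are at 0 in all 5 libraries of the lower class.

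Bacteroides, the main genus here and a broad glycan degrader, consisted of 74 ASVs. It held 0.0331%, 0.225% and 0.752% of reads in SAH+Tet+ABX, 0.651%, 0.917% and 1.22% in SAH+Tet, 1.54%, 2.19% and 1.87% in SAH, and 0.504%, 1.81% and 0.836% in Sham. All SAH+Tet libraries lay below all SAH libraries, SAH+Tet+ABX 3 lay within the SAH+Tet range, and Sham 2 lay within the SAH range. The log2 fold change was -1.33 ± 0.94 in SAH+Tet+ABX against SAH+Tet (adjusted p = 0.266), -1.32 ± 0.50 in SAH+Tet against SAH (0.204) and 1.21 ± 0.50 in SAH against Sham (0.153). Errors of log2 fold changes are standard errors, taken as the fold change over the root of its F value.

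Individual ASVs carry no name in the table and are numbered here within their genus by mean share over the 12 libraries. Bacteroides sartorii, a species first isolated from mouse caecum and labelled on 5 ASVs, had 0 reads in each SAH+Tet+ABX library. It held 0.322%, 0.572% and 1.14% in SAH+Tet, 1.29%, 1.22% and 0.649% in SAH, and 0.108%, 0.521% and 0.502% in Sham. SAH libraries all lay above Sham, and overlapped with SAH+Tet. It made up 49.5%, 62.4% and 93.1% of Bacteroides reads in SAH+Tet, 83.8%, 55.9% and 34.7% in SAH, and 21.4%, 28.8% and 60.0% in Sham.

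Of 111 tested ASVs of these bacteria, 11 fell in SAH+Tet+ABX against SAH+Tet and 0 rose, against 9.73% and 0.585% of 2394 ASVs tested (10.3% together). An unadjusted p under 0.05 was found for 65 of the 111 and for 52.8% of the 2394. Without overlap, 18 of the 111 lay lower and 2 higher, against 19.2% and 3.63% of all ASVs (22.8% together). The 2 main B. sartorii variants were among them. Bacteroides ASV 1 held 0.217%, 0.442% and 0.685% of reads in SAH+Tet and was at least 342-fold lower in SAH+Tet+ABX, where no library had a read (adjusted p = 0.0170). Bacteroides ASV 2 held 0.0917%, 0.109% and 0.363% in SAH+Tet and was at least 143.6-fold lower (adjusted p = 0.0170). Such bounds, here and below, set the mean share of the group with reads against 3 reads per library in the other. They allow for counting error at 0 and not for the spread between libraries. The others that fell were Bacteroides ASV 13, also labelled B. sartorii, Alistipes ASV 1, 9 and 10, Butyricimonas ASV 1 and 2, and Parabacteroides ASV 1, 6 and 11. All 11 had 0 reads in the 3 SAH+Tet+ABX libraries. Bacteroides ASV 13 and Alistipes ASV 9 and 10 passed in 2 of 10 alternative fits each. Their calls were lost without TMM and with depth class or replicate number as a term. The rest of the 11 passed in 5 to 9 of 10 alternatives, with Parabacteroides ASV 11 lowest and Bacteroides ASV 1 and 2 highest. Without SAH+Tet+ABX 3, 0 of 2345 ASVs passed in edgeR (the adjusted p of Bacteroides ASV 1 was 0.0508), and without SAH+Tet 3, 32 of these bacteria's ASVs did, so the number of calls turns on single libraries.

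Bacteroides ASV 3, which has no species label, was the main Bacteroides variant left in SAH+Tet+ABX. It held 0.0246%, 0.129% and 0.546% of reads there, 0, 0.0110% and 0.00660% in SAH+Tet, 0.00806%, 0.00301% and 0.0443% in SAH, and 0.0518%, 0.0193% and 0.0433% in Sham. The SAH+Tet+ABX libraries lay above all SAH+Tet libraries, but the log2 fold change of 4.36 ± 2.01 did not pass (adjusted p = 0.0952). It made up 74.3%, 57.2% and 72.6% of Bacteroides reads in SAH+Tet+ABX, at most 1.20% in SAH+Tet, at most 2.37% in SAH and 1.07% to 10.3% in Sham. Bacteroides ASV 8, also without a species label and singled out after its values were seen, was the 1 variant of the 269 read in all 12 libraries, with 0.00568%, 0.0606% and 0.113% in SAH+Tet+ABX and 0.0125% to 0.0360% in the others. Bacteroides ASV 5 and ASV 6, the remaining members of the genus among the 10 most abundant variants, had 0 reads in all 5 libraries of the lower depth class. ASV 5 held 0.0114% and 0.0147% in SAH+Tet 1 and 2, 0.125% and 0.0675% in SAH 2 and 3, and 0.0373%, 0.281% and 0.0342% in Sham. ASV 6 held 0.0493% and 0.0631% in SAH+Tet 1 and 2, 0.134% and 0.101% in SAH 2 and 3, and 0.0290%, 0.131% and 0.0152% in Sham.

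Bacteroides ASV 4, without a species label, was a variant of the SAH group. Its share was 0, 0.00116% and 0 in SAH+Tet, 0.0793%, 0.0422% and 0.575% in SAH, and 0 in each SAH+Tet+ABX and each Sham library. All SAH libraries lay above all others, and the mean was at least 390.4-fold higher in SAH than in Sham. The variant reached 10 reads in the SAH libraries alone and so met the read minimum through the group in which it was high, for which reason these values are given as a description with no test. Of 109 ASVs of these bacteria tested in each of the 2 comparisons without antibiotics, 0 passed in edgeR, 0% as among all 2283 ASVs, and 13 had an unadjusted p under 0.05 in each, against 24.2% for SAH against Sham and 20.8% for SAH+Tet against SAH. Variants that met the read minimum in a single group had to differ, so these counts and the next are descriptions. Without overlap, 6 of the 109 lay higher and 21 lower in SAH against Sham, beside 7.01% and 23.7% of all ASVs (30.7% together), and 3 lay higher and 8 lower in SAH+Tet against SAH, beside 9.81% and 6.22% (16% together). DESeq2 called 8 of the 109 for SAH against Sham, beside 17.8% of all ASVs, and 11 for SAH+Tet against SAH, beside 13.1%. Bacteroides eggerthii, known from human faeces, labelled on 3 ASVs and chosen after its values were seen, had 0 reads in SAH+Tet+ABX. It held 0.0183%, 0.00813% and 0.0238% in SAH+Tet, 0.0399%, 0.0623% and 0.0497% in SAH, and 0.0107%, 0.00903% and 0.00866% in Sham, so that SAH lay above SAH+Tet and Sham without overlap; no test was made of species sums.

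**Figure D4:**
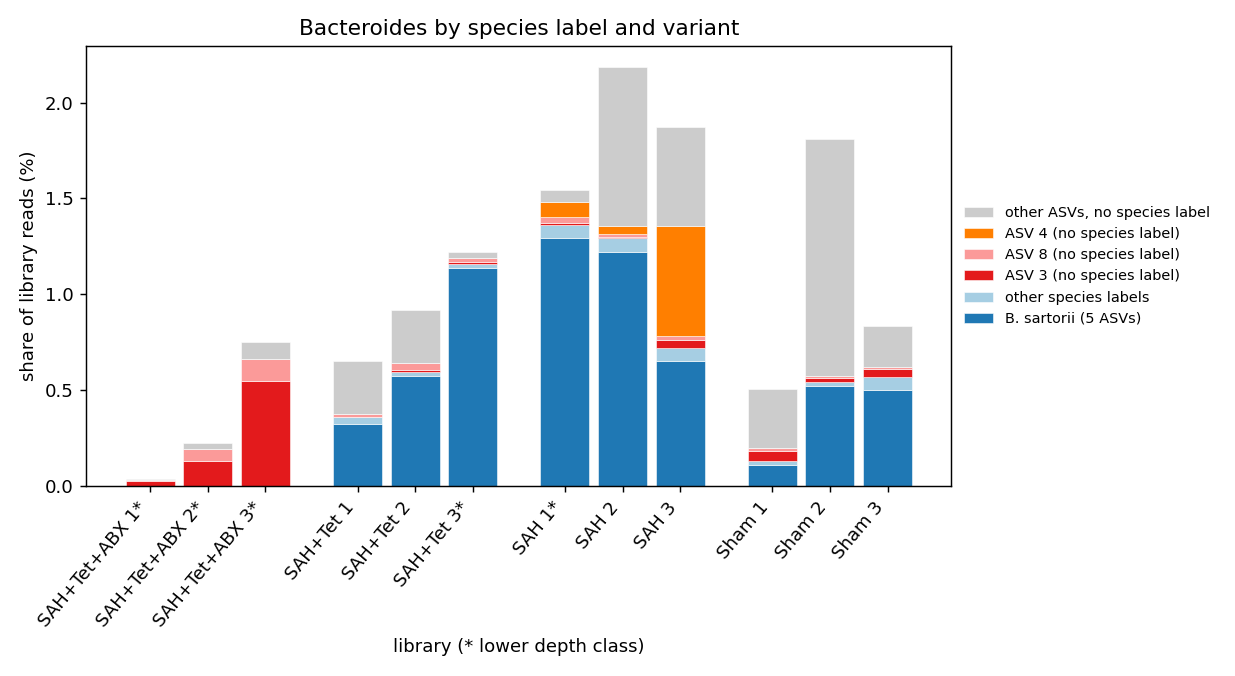
Stacked bars of the share of library reads (%) held by Bacteroides in each library, divided into B. sartorii (5 ASVs), other species labels, ASV 3, ASV 8 and ASV 4, and the remaining ASVs without a species label, with an asterisk on the lower depth class. B. sartorii is absent from the 3 SAH+Tet+ABX bars, in which ASV 3 makes up 57.2% to 74.3% of the genus, and ASV 4 appears in the 3 SAH bars with up to 0.575% of reads.

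Parabacteroides, a relative of Bacteroides that makes acetate and succinate from glycans, held 0, 0 and 0.000817% of reads in SAH+Tet+ABX, 0.0836%, 0.0813% and 0.0365% in SAH+Tet, 0.102%, 0.232% and 0.176% in SAH, and 0.0740%, 0.293% and 0.105% in Sham. It fell in SAH+Tet+ABX against SAH+Tet (adjusted p = 0.00223), where 2 reads remained against 886 in SAH+Tet. Relative to the read totals that is 0.393% of the SAH+Tet level, with an exact 95% counting interval of 0.0475% to 1.42%. In SAH+Tet every library was below every SAH library, with a log2 fold change of -1.56 ± 0.72 (adjusted p = 0.272), and SAH and Sham overlapped. Parabacteroides merdae, labelled on ASV 11, was among the variants that fell. Barnesiella, a gut commensal of the Bacteroidales, had 0 reads in SAH+Tet+ABX. It held 0.0146%, 0.00677% and 0.0123% in SAH+Tet, 0.0117%, 0.0390% and 0.0147% in SAH, and 0.0581%, 0.117% and 0.0331% in Sham. It was at least 8.59-fold lower in SAH+Tet+ABX than in SAH+Tet (adjusted p = 0.00161), with no overlap. The other contrasts of Barnesiella did not pass: -1.33 ± 0.70 on the log2 scale for SAH+Tet against SAH (adjusted p = 0.319) and -1.29 ± 0.70 for SAH against Sham (0.278).

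Alistipes, a bile-tolerant genus of the Rikenellaceae that ferments protein as well as sugars, held 0.0170%, 0.120% and 0.10% of reads in SAH+Tet+ABX, 0.229%, 0.347% and 0.145% in SAH+Tet, 0.184%, 0.296% and 0.251% in SAH, and 0.224%, 0.236% and 0.20% in Sham. SAH+Tet+ABX lay below all other libraries, yet its log2 fold change against SAH+Tet of -1.42 ± 0.77 did not pass (adjusted p = 0.158), and the other 3 groups overlapped. The 3 Alistipes ASVs that fell had reads in every SAH+Tet library and none in SAH+Tet+ABX. Alistipes ASV 1, the main one, held 0.0301%, 0.0929% and 0.0519% in SAH+Tet, 0.15%, 0.0860% and 0.0192% in SAH, and 0.0196%, 0.00542% and 0.0364% in Sham. Alistipes ASV 6, named after its values were seen, held 0.0170%, 0.0290% and 0.0502% in SAH+Tet+ABX, 0 in SAH+Tet, 0.00362% in SAH 1, and 0 in the other SAH and the Sham libraries. It made up 100%, 24.1% and 50% of Alistipes reads in SAH+Tet+ABX and was at least 37.7-fold higher there than in SAH+Tet. It reached 10 reads in SAH+Tet+ABX alone and met the read minimum through that group, so this too is a description with no test. Over the 12 libraries the share of Alistipes ran most like those of Prevotellaceae UCG-003 (Spearman 0.92), Prevotella (0.88) and UCG-010 (0.88), and that of Bacteroides most like UCG-010 (0.79), given as descriptions of libraries that share totals and depth classes.

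Rikenella, a fermenting genus first described from animal guts, had reads in every SAH+Tet+ABX library. It held 0.0506%, 0.0218% and 0.00490% of reads there, 0.0247%, 0.0298% and 0.0132% in SAH+Tet, 0, 0.00358% and 0 in SAH, and 0.00524%, 0.00281% and 0.0146% in Sham. Every SAH+Tet library lay above every SAH library, with a log2 fold change of 3.85 ± 1.63 (adjusted p = 0.238, between 0.0337 and 0.463 over the alternatives). Its SAH+Tet+ABX and SAH+Tet libraries overlapped (0.27 ± 1.37, adjusted p = 0.907). The Rikenellaceae RC9 gut group, known mainly from sequences of animal guts, had none there. Its share was 0 in SAH+Tet+ABX, 0.210%, 0.227% and 0 in SAH+Tet, 0, 0.250% and 0.123% in SAH, and 0.0395%, 0.275% and 0.0250% in Sham, so that its zeros filled the lower depth class. It was at least 111.4-fold lower in SAH+Tet+ABX than in SAH+Tet (adjusted p = 0.0447), a call lost with depth class as a term. The log2 fold change of 0.055 in that fit is no estimate, since every lower-class library was at 0. The dgA-11 gut group of the same family, 79.9% of whose reads were a single variant (ASV 1), had the same zeros, held up to 0.111% in SAH+Tet, 0.165% in SAH and 0.320% in Sham, and did not pass in SAH+Tet+ABX against SAH+Tet (adjusted p = 0.0641).

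The 6 genera found of the 8 listed as saccharolytic (Bacteroides, Parabacteroides, Alistipes, Rikenella, RC9 and Barnesiella) together held 0.442% ± 0.384 of reads in SAH+Tet+ABX, 1.42% ± 0.198 in SAH+Tet, 2.43% ± 0.582 in SAH and 1.62% ± 0.978 in Sham. Of these 6, 3 fell in SAH+Tet+ABX against SAH+Tet (Parabacteroides, Barnesiella and RC9) and 0 rose, beside the 28.1% and 9.18% of all features given above, and the call of RC9 was lost with depth class as a term. In edgeR 0 of the 6 passed in either of the other comparisons, while DESeq2 called Rikenella in SAH+Tet against SAH.

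Both genera of the butyrate-making list were found. Odoribacter held 0 in SAH+Tet+ABX, 0.0159%, 0.0439% and 0 in SAH+Tet, 0, 0.00565% and 0.0129% in SAH, and 0.148%, 0.178% and 0.187% in Sham. All 3 Sham libraries lay above all 9 others. The log2 fold change of SAH against Sham was -4.55 ± 1.99 (adjusted p = 0.170). It was -3.97 with depth class as a term (adjusted p = 0.0190) and -4.09 among the 7 libraries of the higher class (adjusted p = 0.0138), so the difference was nearly as large within the higher class alone. The SAH libraries of that class are those high in aerobic Gram-positive families, whose part in the Odoribacter values was not tested. In SAH+Tet+ABX against SAH+Tet, Odoribacter was at least 15.3-fold lower (adjusted p = 0.0357), with SAH+Tet 3 also at 0. With depth class as a term that log2 fold change was -0.53, but every library of the lower class had 0 reads. That fit therefore cannot estimate the contrast, and the call was lost in 7 of 12 alternatives.

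Butyricimonas held 0 in SAH+Tet+ABX, 0.0675%, 0.0238% and 0.106% in SAH+Tet, 0.0866%, 0.0613% and 0.0154% in SAH, and 0.0208%, 0.0249% and 0.0175% in Sham. It was at least 50.3-fold lower in SAH+Tet+ABX than in SAH+Tet (adjusted p = 0.00106). Its means in SAH+Tet and SAH were above that of Sham, but SAH 3 and SAH+Tet 2 lay within or below the Sham range, and the log2 fold change of SAH against Sham, 1.80 ± 0.78, did not pass (adjusted p = 0.168). Butyricimonas synergistica, a species first isolated from rat faeces, labelled on 3 ASVs and likewise chosen after its values were seen, held 0.0862% in SAH+Tet 3 and at most 0.00968% in any other library. Odoribacter made up 19.1%, 64.9% and 0% of the reads of both genera in SAH+Tet, 0%, 8.43% and 45.7% in SAH, and 87.7%, 87.7% and 91.4% in Sham. Summed, the genera held 0 in SAH+Tet+ABX, 0.0857% ± 0.0193 in SAH+Tet, 0.0606% ± 0.0297 in SAH and 0.192% ± 0.0203 in Sham. They are the whole of the Marinifilaceae, the family with the lowest p of the 11.

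**Figure D5:**
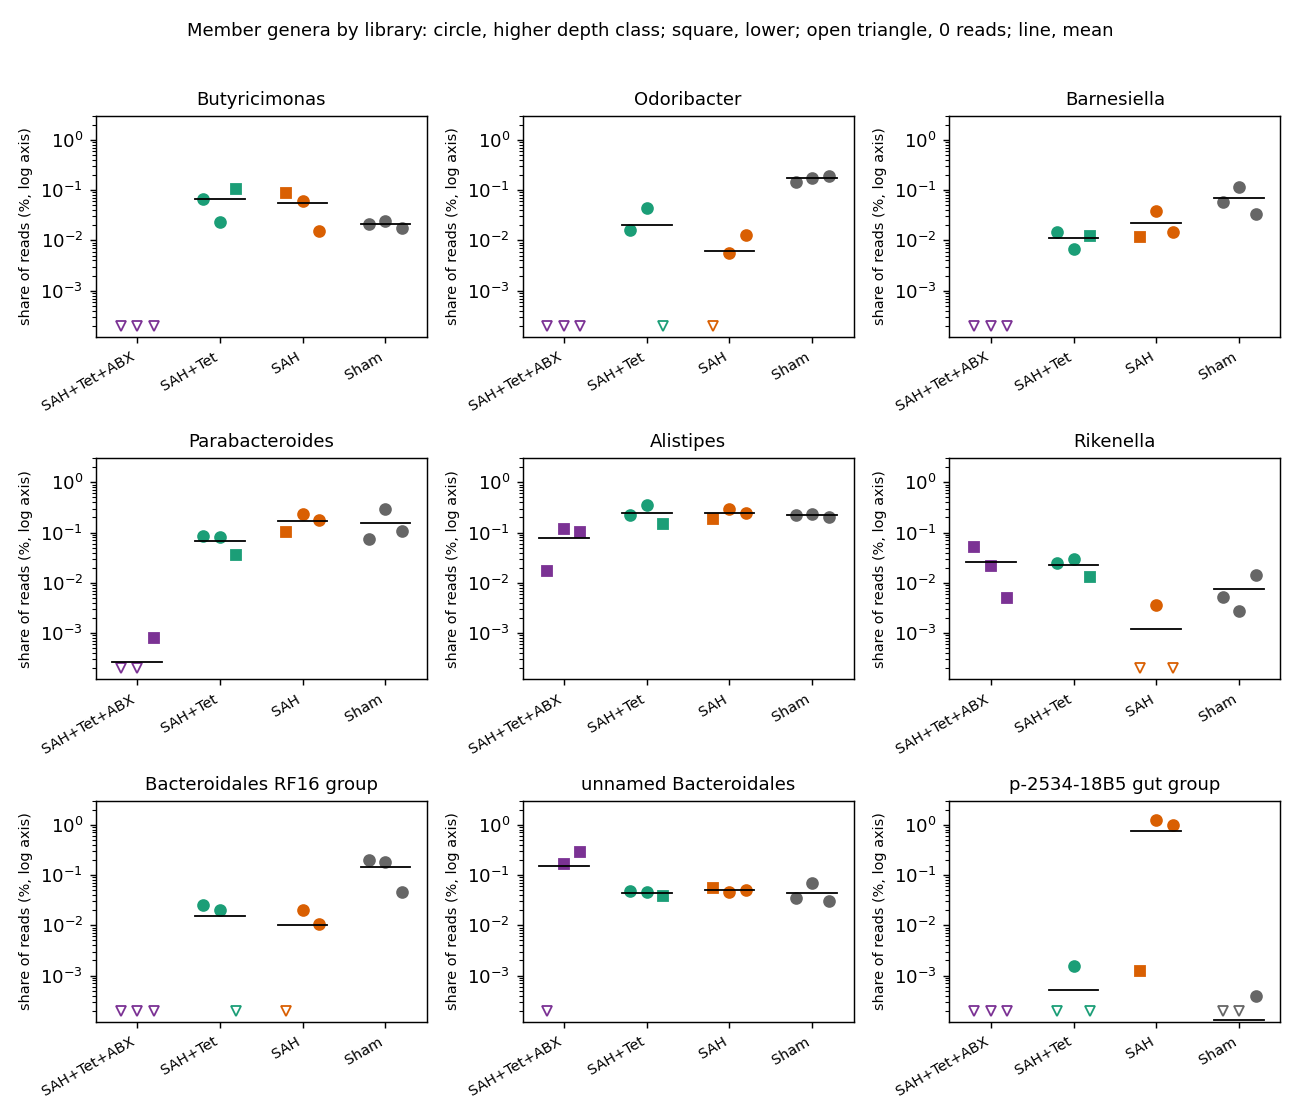
Share of library reads (%, log axis) of 9 genus-level features by group, a symbol per library (circle, higher depth class; square, lower depth class; open triangle at the foot of the axis, 0 reads), with a line at each group mean above the axis minimum. Odoribacter lies at 0.148% to 0.187% in Sham and at most at 0.0439% elsewhere, and Butyricimonas, Odoribacter, Barnesiella and the RF16 group have 0 reads in all 3 SAH+Tet+ABX libraries.

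Of the 10 families listed as known mainly from sequence, 3 were found. The Bacteroidales RF16 group held 0 in SAH+Tet+ABX, 0.0251%, 0.0199% and 0 in SAH+Tet, 0, 0.0198% and 0.0105% in SAH, and 0.203%, 0.178% and 0.0464% in Sham. Sham lay above all other libraries, with a log2 fold change of SAH against Sham of -3.53 ± 1.96 (adjusted p = 0.278), and the group was at least 11.5-fold lower in SAH+Tet+ABX than in SAH+Tet (adjusted p = 0.0448). That call was lost in 7 of 12 alternatives. With depth class as a term the log2 fold change was -0.10, which is no estimate, since the RF16 group had 0 reads in every lower-class library. Unnamed Paludibacteraceae held 0 in SAH+Tet+ABX, 0.0408%, 0.0937% and 0 in SAH+Tet, 0, 0.00395% and 0.00134% in SAH, and 0.00948%, 0.0911% and 0.00712% in Sham. They were at least 34.3-fold lower in SAH+Tet+ABX than in SAH+Tet (adjusted p = 0.0339), although SAH+Tet 3 was also at 0. This call was lost in 7 of 11 alternatives. With depth class as a term the log2 fold change was -0.97, which is no estimate, since unnamed Paludibacteraceae had 0 reads in every lower-class library. They were lower in every SAH library than in any Sham library (-3.89 ± 2.15, adjusted p = 0.278).

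The third, the p-2534-18B5 gut group, was a single ASV. It held 0 in SAH+Tet+ABX, 0, 0.00155% and 0 in SAH+Tet, 0.00121%, 1.25% and 0.967% in SAH, and 0, 0 and 0.000385% in Sham. SAH 2 and SAH 3 were high and every other library was at or near 0, so it missed the minimum of 10 reads in 3 libraries and was not tested. In SAH 2 and SAH 3 it was the largest feature of these bacteria after Bacteroides. The genera whose shares ran most like it over the 12 libraries were Aerococcus (Spearman 0.88), Kurthia (0.85) and Corynebacterium (0.71). Aerococcus and Corynebacterium belong to the aerobic Gram-positive families given above, which were high in SAH 2 and SAH 3. Those families were as high in SAH+Tet 1 and SAH+Tet 2, where the p-2534-18B5 group had 0 and 0.00155%. Their part in the SAH values was not tested.

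Unnamed Bacteroidia, 9 ASVs named no deeper than class, were also highest in Sham. They held 0, 0 and 0.000408% in SAH+Tet+ABX, 0.00502%, 0.0217% and 0 in SAH+Tet, 0, 0.00433% and 0.0109% in SAH, and 0.179%, 0.110% and 0.214% in Sham. Sham lay above all 9 other libraries, with a log2 fold change of SAH against Sham of -4.82 ± 1.95 (adjusted p = 0.150, and 0.0259 among the 7 libraries of the higher class). Unnamed Bacteroidales had their highest mean in SAH+Tet+ABX, with 0, 0.162% and 0.285% there, 0.0480%, 0.0449% and 0.0378% in SAH+Tet, 0.0556%, 0.0450% and 0.0495% in SAH, and 0.0345%, 0.0696% and 0.0304% in Sham. SAH+Tet+ABX 2 and 3 lay above, and SAH+Tet+ABX 1 below, every other library, so the log2 fold change of 1.96 ± 1.48 did not pass (adjusted p = 0.297); without SAH+Tet+ABX 1 it did. A single variant, unnamed Bacteroidales ASV 1, made up 99.2% and 100% of these reads in SAH+Tet+ABX 2 and 3. The Rs-E47 termite group held 0 in SAH+Tet+ABX, 0.0164% in SAH+Tet 2, 0.00446% in SAH 3, and 0.00585%, 0.122% and 0.00462% in Sham, and passed in no comparison.

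Bacteroidota outside the Bacteroidales were rare. Unnamed Flavobacteriaceae held 0 in SAH+Tet+ABX, 0.00284%, 0.0139% and 0.0114% in SAH+Tet, 0.0165%, 0.00734% and 0.00446% in SAH, and 0.00766%, 0.0289% and 0.010% in Sham. They were at least 7.19-fold lower in SAH+Tet+ABX than in SAH+Tet (adjusted p = 0.00485), and the other groups overlapped. Sphingobacterium, a genus of soil and water, was read in SAH 2 (0.0425%) and SAH 3 (0.0312%) and in no other library. These are the libraries in which the p-2534-18B5 group was high. It was 1 of 4 found of the 14 environmental genera listed. The other 3, Flavobacterium, Chryseobacterium and Sediminibacterium, held at most 0.00218% in a library, and 0 of the 4 listed oral genera was found. The 12 features under 0.01% in every group had group means of at most 0.00502%.

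Presence also followed depth class. Of 14 genus-level features of these bacteria with reads in at least 6 of the 7 higher-class libraries, 5 had 0 reads in all 5 lower-class libraries: Odoribacter, RC9, dgA-11, the RF16 group and unnamed Paludibacteraceae. This is 35.7% of them, against 9.09% of 154 features of the whole table. In SAH+Tet and SAH each of these 5 was at 0 in the lower-class library, although their shares in the other libraries of the same groups reached up to 0.250%. Butyricimonas, Barnesiella, Parabacteroides and unnamed Flavobacteriaceae, by contrast, had reads in both SAH+Tet 3 and SAH 1 and at most 2 in all of SAH+Tet+ABX. For these 4, SAH+Tet 3, the only SAH+Tet library of the lower class, lay above every SAH+Tet+ABX library. With a single library this was not tested.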

How the data were processed

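Bacterial 16S rRNA gene fragments from rat faeces were sequenced in 12 libraries, per the labels' protocols. The authors deposited unscaled counts, whole numbers of reads for each ASV lineage, and totals differ between libraries. The submitters' processing notes name fastp and cutadapt. The sources used here name no denoiser, primers or taxonomy database. Those choices set which ASVs exist and how deep their names go. The series table and the per-sample tables held the same counts. The 2 Eukaryota ASVs (12 reads) were dropped, leaving 7238 ASVs in 385 features at genus level, and 0 columns belonged to other samples. Depth ranged from 211450 to 531426 reads.

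Groups came from the treatment label. Shares are percentages of a library's reads. A minimum of 10 reads in 3 libraries of the fit was set, and features were tested over the whole table with edgeR 4.0.16 (quasi-likelihood, TMM scaling, R 4.3.3) with Benjamini-Hochberg adjustment and a threshold of 0.05. SAH against Sham and SAH+Tet against SAH came from a fit of the 9 libraries without antibiotics, SAH+Tet+ABX against SAH+Tet from all 12. Families were tested by an exact permutation test on log10(percent + 0.001) over all 15400 arrangements of the libraries (smallest possible p 6.49e-05, Python 3.11.15), since 3 against 3 cannot go below p = 0.1. The scripts were tested on simulated data. DESeq2 1.42.0, no TMM, no filter, depth class (boundary 300000 reads) or replicate number as a term, other fits and left-out libraries were alternatives, and the fits within a depth class and the depth block for families were added after the data were seen. Replicate numbers were not used as pairs, because the labels tie them to nothing shared and no comparison had every same-numbered correlation over 0.1. Over the ASVs described here libraries of a group differed beyond counting noise (chi-square per degree of freedom 28.1 to 131.2). This cannot tell separate animals from repeat libraries of the same animal. Features named are those with at least 0.01% of reads in a group on average, past a test or on a list, the 10 most abundant ASVs, the main ASV of each genus over 0.1% and ASVs past the threshold. The members and lists were chosen with earlier results of these data known.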

Additional observations from a re-analysis of the deposited data

How the results depend on the processing

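Features with an unadjusted p under 0.05 or without overlap in SAH against Sham or SAH+Tet against SAH, such as Odoribacter and Rikenella, had the same sign in every alternative run. They were picked on the same libraries that the alternatives refitted, so a change of sign was unlikely and this is a description. Library totals in place of TMM moved the median log2 fold change of all genera by -0.27 for SAH against Sham and by 0.23 for SAH+Tet against SAH. With depth class as a term, the log2 fold change of 3 features changed sign in SAH+Tet+ABX against SAH+Tet, none past the threshold. The RC9 gut group came to 0.055, dgA-11 to 0.41 and unnamed Bacteroidia to 2.27. In the lower class RC9 and dgA-11 had 0 reads and unnamed Bacteroidia 1, so this fit gives no direction for them.

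For SAH against Sham, DESeq2 called 48 genera (2 described here) and 406 ASVs (8), depth class as a term 29 genera (2), and the higher depth class alone 24 (2). For SAH+Tet against SAH, DESeq2 called 30 genera (1) and 300 ASVs (11), and the higher depth class 1 genus. Left-out libraries gave 0 to 1 genera in each. For SAH+Tet+ABX against SAH+Tet the reported fit gave 73 genera (8) and 247 ASVs (11). Depth class as a term left 4 of the 8 genera and 145 ASVs, the 6 libraries alone 43 genera (4), no TMM 159 ASVs (7), DESeq2 885 ASVs (52), and the lower depth class 0 genera (0) and 0 ASVs (0). Left-out libraries gave 45 to 81 genera (4 to 10) and 0 to 493 ASVs (0 to 32).

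Of 24 families (5 described here), shares without a logarithm left 11 (2), the centred log-ratio gave 43, no filter 13 (2), the depth block 2 of the 5, and the groups without SAH+Tet+ABX 0 (0). Left-out libraries gave 13 to 42 families (3 to 7). Marinifilaceae passed in each left-out fit. The replicate numbers were not taken as pairs (correlations of same-numbered deviations 0.071 to 0.10 for SAH and Sham, -0.586 to 0.496 for SAH+Tet and SAH, -0.011 to 0.142 for SAH+Tet+ABX against SAH+Tet). All 6 libraries correlated best with their own number for SAH and Sham, which is a hint from the data and not from the design, and 2 of 6 did in either other comparison. In SAH+Tet+ABX against SAH+Tet a replicate block left 44 genera (4) and 99 ASVs (2), and it left 0 families (0). For families that block allows 576 arrangements and a smallest permutation p of 0.00174. No family could pass by itself there, nor in the groups without SAH+Tet+ABX.

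As a share of Bacteroidota reads the sums were 1.76%, 8.27%, 14.7% and 12.8% in SAH+Tet+ABX, SAH+Tet, SAH and Sham, and counting only ASVs with at least 10 reads gave 8.67, 63.7, 76.7 and 84.0 per library in the same order of groups. With 3 libraries a group and 2 depth classes that overlap with antibiotics, a feature at 0 in SAH+Tet+ABX and in SAH+Tet 3 cannot be told apart from one that is missing from the lower depth class. Shares below 0.00142% were not detectable in every library.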
